A study of Mus musculus with 10 samples.

Results

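Rnase4 and Ang are overlapping mouse genes of secreted ribonucleases on chromosome 14, and Rnh1 encodes the cytosolic protein that binds and inhibits such enzymes. These 3 genes, of 27179 in the count table, were measured by RNA sequencing in sorted regulatory T cells with and without the transcription factor Maf. Rnase4 and Ang were chosen because their counts were lower in Maf-KO than in WT cells, so their genotype differences are described here and carry no test. Rnh1 was added for its function. All 3 passed the filter on low counts, which left 13214 genes. Ang passed it through the WT groups: in both Maf-KO groups each library held at most 4 Ang reads.

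The cells were sorted as CD4+ TCRb+ YFP+ T cells from C57BL/6 mice, and all of them carry the Foxp3Cre-YFP allele, which makes Cre and a yellow reporter in Foxp3-expressing cells. Maf-KO gut (2 libraries) and Maf-KO spleen (3 libraries) are of the genotype Maffl/fl x Foxp3Cre-YFP, and WT gut (2) and WT spleen (3) carry Foxp3Cre-YFP with no floxed Maf allele named. Gut stands for colon plus small intestine. Ages are not given in the labels, and the labels do not say whether each library is a separate mouse, so p-values measure the spread between libraries.

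Ribonucleases of the RNase A superfamily are small secreted proteins with a signal peptide, disulfide bonds and a catalytic pair of histidines with a lysine. Ribonuclease 4, the product of Rnase4, prefers to cut RNA after uridine. Angiogenin, the product of Ang, was found as an inducer of blood vessel growth. It is a weak general ribonuclease that cuts transfer RNAs in the anticodon loop in stressed cells, and it has antimicrobial relatives in the gut. In mammals both genes are transcribed from shared promoters: noncoding first exons are spliced to either of 2 exons, each of which holds one whole protein. The ribonuclease inhibitor Rnh1 is a horseshoe of leucine-rich repeats that binds these enzymes very tightly and shields cellular RNA from any that reach the cytosol.

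In GENCODE M21 (build GRCm38), Rnase4 (Entrez 58809) spans chr14:51091077-51106151 and Ang (Entrez 11727) runs on the same plus strand and ends at 51102009. The coding part of Ang lies in 1 exon, with coding bases at chr14:51101404-51101838. That of Rnase4 also lies in 1 exon, which starts 2797 bases after the end of the Ang exon, with coding bases at chr14:51104821-51105264. The first exons are noncoding and overlap: 219 exonic bases belong to both genes, which is 13.4% of the Rnase4 exonic bases and 18.2% of those of Ang. Reads over these 219 bases cannot be assigned to 1 gene, and how the counting treated them, and whether it used strand, is not given in the sources used here. Rnase4 has 1418 exonic bases of its own and Ang has 983. Rnh1 (Entrez 107702) lies elsewhere, on the minus strand at chr7:141160326-141172851 in RefSeq, and 7 of the 10 exons of its full-length transcripts are 171 bases long, exons that each encode leucine-rich repeats.

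**Figure D1:**
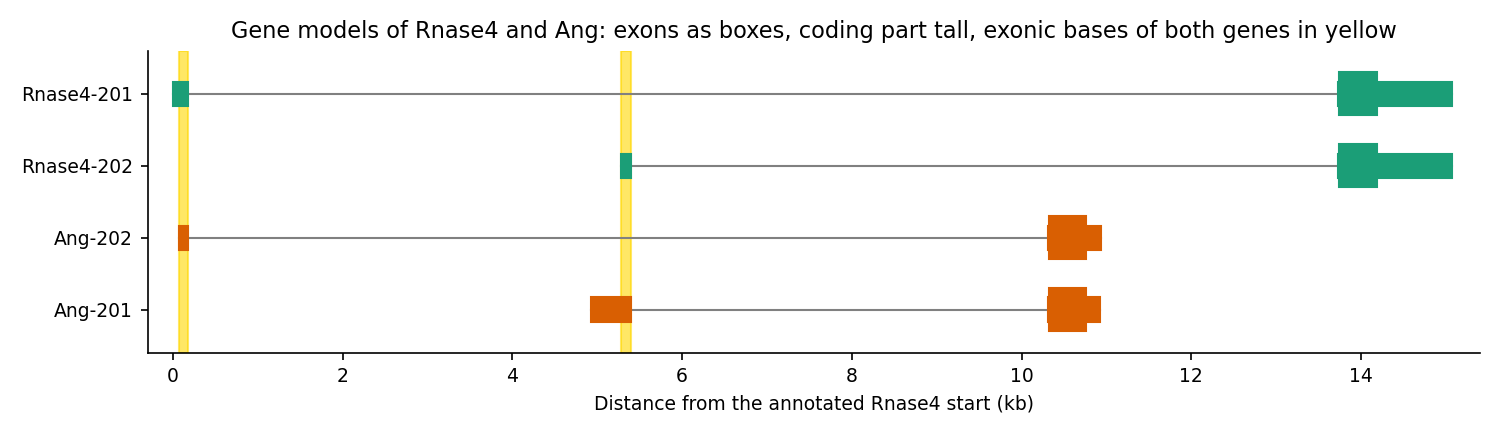
Transcripts of Rnase4 and Ang along the locus, with distance from the annotated Rnase4 start in kb on the x axis. Boxes are exons, tall boxes their coding part, and yellow bands mark the exonic bases that both genes hold, all of them in the first exons; the coding exons do not overlap.

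The coding exons hold the family signature, a run of 7 codons around the catalytic lysine, which is shown because it marks both genes as RNase A ribonucleases and shows how far their own reads can be told apart. The signature is in capitals, 5′ to 3′ on the plus strand, from GENCODE M21 transcripts, at chr14:51105010-51105054 for Rnase4 and chr14:51101578-51101622 for Ang.
Rnase4: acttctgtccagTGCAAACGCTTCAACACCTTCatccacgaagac
Ang: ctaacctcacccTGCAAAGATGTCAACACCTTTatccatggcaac
The 21 capital bases are the same at 16 positions, and the 45 bases shown at 26. Over the whole second exons, the longest run that Rnase4 and Ang share letter for letter is 12 bases. The second exon of Ang shares runs of up to 41 bases with another angiogenin gene, Ang2, and of 40 with the angiogenin pseudogenes Ang-ps1, Ang-ps2 and Ang-ps3, so reads of these genes could overlap in part. Ang2 had 1 read in all 10 libraries. The longest run shared by the Rnase4 exon with any other family member was 14 bases.

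The shared start is shown because both low genes are annotated to begin there. RefSeq (GRCm38.p6) gives Rnase4 2 promoter windows of 250 bases before to 50 bases after a start, and gives Ang 1, which is the same window as the first of Rnase4. The 250 bases before each start are printed 5′ to 3′ on the plus strand.
Shared start of Rnase4 and Ang, chr14:51090827-51091076: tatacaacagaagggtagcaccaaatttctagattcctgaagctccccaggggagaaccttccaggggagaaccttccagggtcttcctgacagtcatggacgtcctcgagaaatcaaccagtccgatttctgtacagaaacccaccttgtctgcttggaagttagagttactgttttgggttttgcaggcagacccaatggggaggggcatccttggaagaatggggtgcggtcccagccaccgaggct
Second start of Rnase4, chr14:51095750-51095999: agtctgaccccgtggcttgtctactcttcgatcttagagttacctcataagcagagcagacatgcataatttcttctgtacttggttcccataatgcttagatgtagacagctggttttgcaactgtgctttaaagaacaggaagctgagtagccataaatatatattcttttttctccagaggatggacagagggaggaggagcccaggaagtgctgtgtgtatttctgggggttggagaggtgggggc
The second start lies 4923 bases downstream of the first, and the GENCODE transcript Ang-201 begins there. In the 2 windows, 3 motifs were searched on both strands: TGCTGA, the core of a Maf recognition element, TGACTCA, the AP-1 site, and TGACGTCA, the cyclic AMP response element. Neither window of the locus holds any of these motifs. Of 32817 windows of all genes, 19.5% hold TGCTGA, 5.2% TGACTCA and 1.79% TGACGTCA. The last 3 letters of TGCTGA are the first 3 of both longer motifs, so matches of different motifs may overlap. Of the 3 windows of Rnh1, 1 holds TGACTCA, 179 bases before its start. The shared window is 54.7% G and C with 8 CpG pairs, the second 45.3% with 2, and the medians of all windows are 52.7% and 7.

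Maf itself was near 0 in the Maf-KO libraries, as the genotype labels give it. It had 7 and 3 counts in Maf-KO gut, against 859 and 918 in WT gut, and 2, 10 and 2 in Maf-KO spleen, against 337, 312 and 484 in WT spleen. Library totals ran between 8567035 and 13983965 counts, and 3 counts, the floor used here, equal 0.231 to 0.377 CPM, the count scaled by library total and TMM factor. Intervals of shares and of count ratios, and floors, cover counting error only, while intervals of a fitted log2 fold change cover the spread between libraries. Treg markers were present in all groups: Foxp3 stood at 174 to 211 CPM in Maf-KO gut, 156 to 206 in WT gut, 114 to 123 in Maf-KO spleen and 117 to 134 in WT spleen.

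Rnase4 was low in every Maf-KO library and highest in WT gut. It had 2.87 and 2.79 CPM in Maf-KO gut, against 60.3 and 51.2 CPM in WT gut, on 68 reads in the 2 Maf-KO libraries and 913 in the 2 WT libraries. The 2 libraries of each gut group lay close together and far from the other group. In spleen it had 26, 17 and 23 counts in Maf-KO libraries, against 116, 132 and 132 in WT libraries, or 2.82, 1.87 and 2.24 CPM against 10.3, 10.2 and 12.5 CPM. Again no Maf-KO library reached a WT library, in values by which Rnase4 was chosen. As group means, Rnase4 stood at 2.83 ± 0.05 CPM in Maf-KO gut, 55.7 ± 6.41 in WT gut, 2.31 ± 0.48 in Maf-KO spleen and 11 ± 1.32 in WT spleen (SD, n = 2, 2, 3 and 3). The order of the levels is thus WT gut, WT spleen and then the Maf-KO groups, whose libraries overlap.

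Ang followed at a lower level. It had 2 and 2 counts in Maf-KO gut, against 29 and 45 in WT gut, which is 0.174 and 0.16 CPM against 3.64 and 5.32 CPM. Both Maf-KO gut values are under the floor of 3 counts. In spleen it had 3, 4 and 3 counts in Maf-KO libraries, against 12, 15 and 20 in WT libraries, or 0.325, 0.44 and 0.292 CPM against 1.07, 1.15 and 1.9 CPM. The genotypes did not overlap in either tissue, on few reads and in values by which Ang was chosen. How many of all genes do not overlap was not counted. Group means were 0.167 ± 0.01 CPM in Maf-KO gut, 4.48 ± 1.19 in WT gut, 0.353 ± 0.08 in Maf-KO spleen and 1.37 ± 0.46 in WT spleen (SD, n = 2, 2, 3 and 3).

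Rnh1, the inhibitor, was abundant and even. It had 158 and 161 CPM in Maf-KO gut, against 181 and 146 CPM in WT gut, and 149, 118 and 147 CPM in Maf-KO spleen, against 141, 143 and 144 CPM in WT spleen. Maf-KO values fell within the range of WT values in gut, and the groups overlapped in spleen, where Maf-KO replicate 2 was the lowest library. Group means were 159 ± 1.78, 163 ± 24.7, 138 ± 17.8 and 143 ± 1.7 CPM in the same order of groups.

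**Figure D2:**
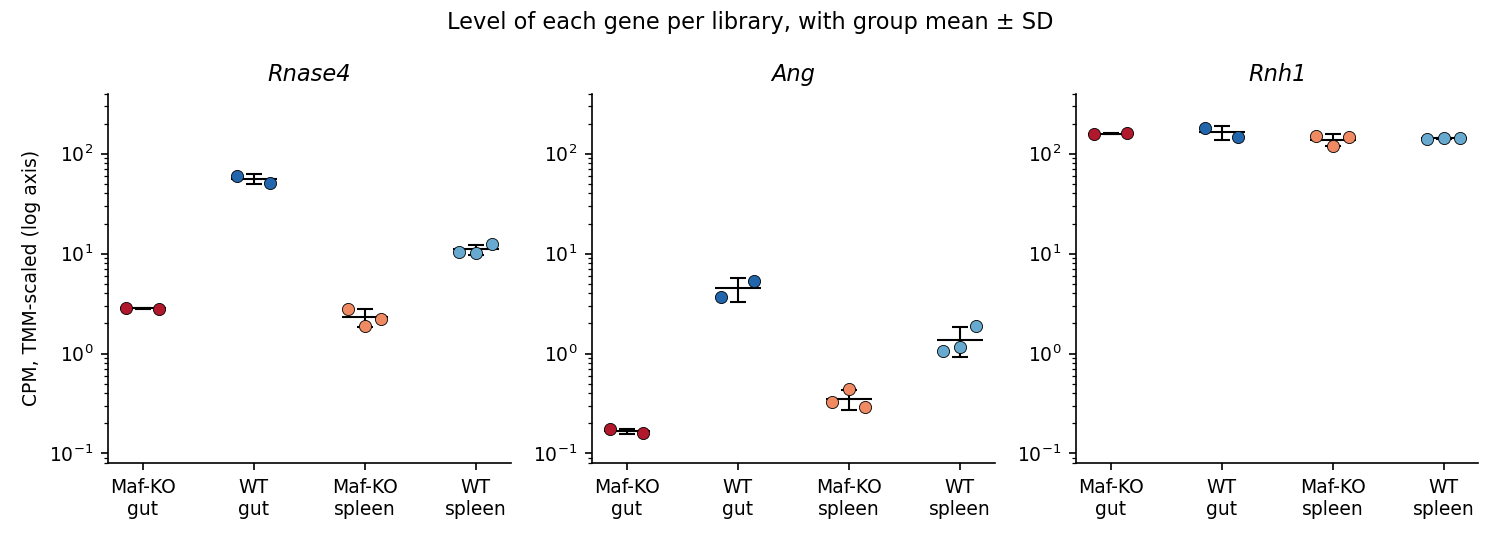
CPM of Rnase4, Ang and Rnh1 in each of the 10 libraries (points, log axis) with group mean and SD (bars), for Maf-KO gut, WT gut, Maf-KO spleen and WT spleen. Rnase4 lies at 1.87 to 2.87 CPM in the 5 Maf-KO libraries, below all WT libraries, while Rnh1 lies at 118 to 181 CPM throughout.

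In the edgeR model of all 10 libraries, the Rnase4 log2 fold change of Maf-KO against WT was −4.29 (SE 0.24) in gut, 19.6-fold lower, and −2.24 (SE 0.20) in spleen, 4.74-fold lower. For Ang it was −4.65 (SE 0.56) in gut and −1.93 (SE 0.44) in spleen. From summed counts alone, the exact 95% interval of the fold by which Maf-KO was lower is 15.3 to 25.5 for Rnase4 in gut and 3.63 to 6.24 in spleen. For Ang it is much wider, 10.1 to 102 in gut and 1.93 to 8.57 in spleen, on 4 and 10 Maf-KO reads. Over all genes tested, 0.151% were called in gut (20 genes, 18 of them lower in Maf-KO) and 0.0151% in spleen (2 genes, both lower), at a Benjamini-Hochberg adjusted p under 0.05. Since Rnase4 and Ang were picked from these comparisons, nothing is read from their standing in them. Leaving out any 1 library gave −4.40 to −4.16 for Rnase4 in gut and −2.41 to −2.12 in spleen. In bulk libraries, fewer cells that express a gene and less RNA per cell cannot be told apart.

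Rnh1 did not pass the test in either tissue. Its log2 fold change of Maf-KO against WT was −0.03 in gut (95% interval −0.352 to 0.286, adjusted p = 0.9811 in edgeR's quasi-likelihood test) and −0.04 in spleen (−0.305 to 0.216, adjusted p = 0.9994). Changes that lie within these intervals are not shown to be absent.

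Between tissues, the 2 ribonuclease genes were higher in gut than in spleen in WT cells. The log2 fold change of gut against spleen in WT was 2.34 for Rnase4 (SE 0.19, adjusted p = 1.946e-05 in edgeR) and 1.71 for Ang (SE 0.39, adjusted p = 0.009083), beside 28% of all genes tested that were called in this comparison. Every WT gut library was above every WT spleen library for both genes. The share of all genes that separate in this way was not counted, so nothing is read from the separation. The call of Ang rests on WT gut replicate 3, without which the value is 1.40 with an adjusted p of 0.08985; that of Rnase4 held without any 1 library. These WT libraries also entered the genotype comparisons by which the genes were chosen, so the p-values are not independent of the choice. Rnh1 had 0.20 (SE 0.13, adjusted p = 0.3011).

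In Maf-KO cells, Rnase4 did not pass the test between tissues. Rnase4 had 2.87 and 2.79 CPM in gut, against 2.82, 1.87 and 2.24 CPM in spleen, with a log2 fold change of 0.29 (95% interval −0.22 to 0.803, adjusted p = 0.3913 in edgeR). The gut and spleen values overlapped. These Maf-KO libraries also entered the comparisons by which Rnase4 was chosen, so its p-value is not independent of the choice. Rnh1 had 0.21 (SE 0.13, adjusted p = 0.2715), and 28.6% of all genes tested were called here. Ang had −1.02 (SE 0.63), on 4 reads in gut and 10 in spleen. As Ang passed the filter through the WT groups, this is a description. The Ang value was −1.18 on the deposited log2 FPKM values with limma-trend, and −1.14 to −0.843 with any 1 library left out. With the reads of Rnase4 and Ang summed it was 0.171, but that sum follows Rnase4, which has most of the reads, and is not a value of Ang alone. The difference of the genotype effects between the tissues, gut minus spleen, was −2.05 for Rnase4 (SE 0.30) and −2.73 for Ang (SE 0.75), given as a description because it contains the comparisons that chose them. For Rnh1 it was 0.01 (SE 0.19, adjusted p = 0.9999). In this comparison 0% of all genes tested were called by edgeR, with 422 genes at an unadjusted p under 0.05 and 8 called by DESeq2.

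**Figure D3:**
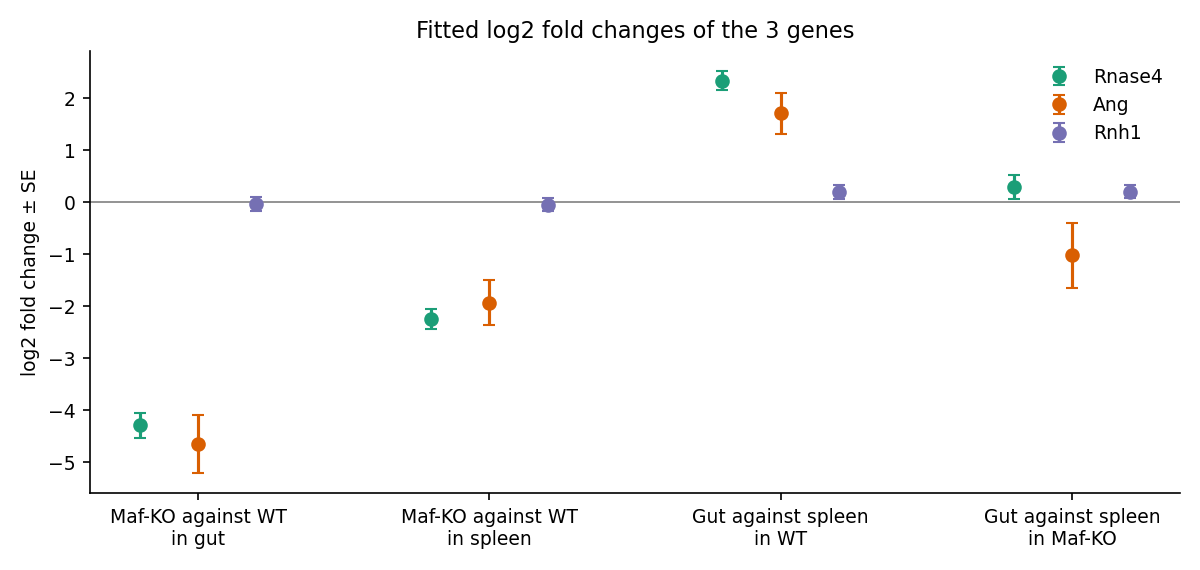
Fitted log2 fold changes with SE of Rnase4, Ang and Rnh1 in the genotype and tissue comparisons. Rnase4 and Ang lie below 0 for Maf-KO against WT in both tissues and above 0 for gut against spleen in WT, and Rnh1 lies within 0.21 of 0 in all 4.

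Because both genes share first exons, their reads were also set against each other. Ang made up 5.56% of the Rnase4 and Ang reads in Maf-KO gut (exact 95% binomial interval 1.53 to 13.6), 7.5% in WT gut (5.93 to 9.32), 13.2% in Maf-KO spleen (6.49 to 22.9) and 11% in WT spleen (8.2 to 14.4). These shares come from the reads by which the genes were chosen, summed over libraries, and are a description with no test of a difference between genotypes. Single libraries ran between 5.41% and 19%. The WT gut libraries had 5.7% and 9.41%, against 9.38%, 10.2% and 13.2% in the WT spleen libraries. WT gut replicate 1 lies below every WT spleen library, and WT gut replicate 3 lies just above the lowest of them. With all reads of each gene divided by the exonic bases that it alone has, Rnase4 had 11.8, 8.55, 4.58 and 5.6 times the value of Ang. These are for Maf-KO gut, WT gut, Maf-KO spleen and WT spleen. The ratios assume that no read over shared bases was counted, which is not known. They also assume GENCODE exons, with 1637 exonic bases for Rnase4 and 1202 for Ang. The deposited FPKM values imply median lengths of 1986 and 1231 bases.

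**Figure D4:**
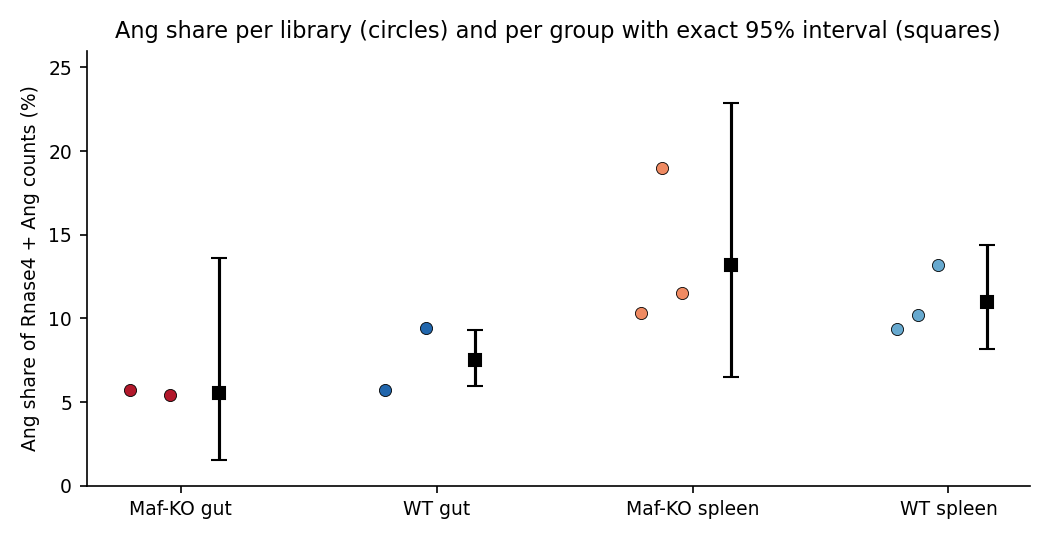
Share of Ang in the summed reads of Rnase4 and Ang, per library (circles) and per group with the exact 95% binomial interval (squares), for Maf-KO gut, WT gut, Maf-KO spleen and WT spleen. The group shares lie between 5.56% and 13.2%, and the genotypes' intervals overlap in both tissues.

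The authors' deposited FPKM values, which divide by gene length, allow levels of different genes to be compared. On that scale Rnase4 stood at 1.33 ± 0.03 FPKM in Maf-KO gut, 26.4 ± 3.93 in WT gut, 1.29 ± 0.27 in Maf-KO spleen and 6.16 ± 0.687 in WT spleen (SD, n = 2, 2, 3 and 3). It was above Ang in each library, by a geometric mean of 9.44, 8.02, 3.97 and 5.19 times in these groups. Single libraries ran between 2.61 times (Maf-KO spleen replicate 2) and 10.5 times (WT gut replicate 1). The Maf-KO ratios rest on at most 4 Ang reads in a library. Rnh1 FPKM exceeded Rnase4 FPKM 55.3 times in Maf-KO gut but 2.89 times in WT gut, and 59.2 times in Maf-KO spleen but 12.9 times in WT spleen. Rnh1 itself stood at 73.5, 76.7, 75.6 and 79 FPKM in the 4 groups. The ratio of Rnh1 to Rnase4 thus restates the Rnase4 difference between genotypes. Both sets of ratios use the values by which Rnase4 and Ang were chosen, and they are a description of RNA with no test.

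The locus sits in a cluster of the same family: 12 genes of the RNase A list, Rnase4 and Ang included, start within 500 kb of its start. Of 21 listed family genes, 20 are in the count table, 10 had no read in any library, and 4 passed the filter: Rnase4, Ang, Rnase6 and Ear2. Rnase6, an antimicrobial ribonuclease of myeloid cells that starts 32.8 kb downstream, had 4.26 and 2.31 CPM in Maf-KO gut, against 8.29 and 3.9 CPM in WT gut. In spleen it had 5.2, 11.7 and 6.62 CPM in Maf-KO libraries, against 14.3, 7.39 and 8.54 CPM in WT libraries. The genotypes overlapped in both tissues, and it was not called (log2 fold change −0.89, SE 0.53, adjusted p = 0.7231 in gut; −0.36, adjusted p = 0.9994 in spleen). Between tissues Rnase6 was not called by edgeR without a block, with −0.73 in WT and −1.25 in Maf-KO. It was called as lower in gut by edgeR with the library's title number as a block, at −0.94 in WT (adjusted p = 0.01532) and −1.48 in Maf-KO (adjusted p = 0.002018). In Maf-KO it was also called without a block by DESeq2 (−1.24, adjusted p = 0.04724) and by limma-trend on log2 FPKM (−1.47, adjusted p = 0.03262). Ear2, an eosinophil-associated ribonuclease, had 1 and 2 counts in Maf-KO gut, against 0 and 1 in WT gut, and 12, 26 and 9 in Maf-KO spleen, against 21, 20 and 13 in WT spleen. It passed the filter through the spleen groups, so its tissue difference is given as counts with no test.

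Rnase1, the pancreatic ribonuclease 53.9 kb downstream, was too low to test. It had 0 and 0 counts in Maf-KO gut, against 58 and 4 in WT gut, and 3, 0 and 0 in Maf-KO spleen, against 3, 0 and 0 in WT spleen. The lipase Pnlip, made by pancreatic acinar cells, was high in the same libraries, with 0 and 0 counts in Maf-KO gut, against 215 and 64 in WT gut, and 9, 0 and 0 in Maf-KO spleen, against 3, 0 and 0 in WT spleen. The summed level of 12 acinar markers was 1.65 to 2.31 CPM in Maf-KO gut, 26.3 to 161 in WT gut, 2.05 to 9.21 in Maf-KO spleen and 1.61 to 3.11 in WT spleen. In gut, 0 of the 7 tested acinar markers were called between the genotypes by edgeR and 2 by DESeq2, beside 0.151% and 0.848% of all genes called by these tools. All 7 had an unadjusted p under 0.05 in edgeR and in limma-voom (6 in DESeq2), beside 8.14% of all genes tested in edgeR. Apart from Prss2, these markers passed the filter through WT gut alone, so these counts are not independent of the filter. In spleen 0 of the 7 were called or had such a p by these tools, beside 2.85% of all genes tested with such a p in edgeR. Of the 12 markers, 9 had no read in Maf-KO gut. The part of acinar RNA in the values of Rnase4 and Ang was not tested. Within WT gut, Rnase4 was 60.3 CPM in replicate 1 and 51.2 CPM in replicate 3, while Pnlip was 27 and 7.57 CPM. Without WT gut replicate 1 the Rnase4 log2 fold change in gut was −4.16.

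Marker sums of other cell types that a sort can carry along overlapped between the genotypes. The summed level of 13 macrophage, monocyte and neutrophil markers was 115 to 354 CPM in Maf-KO gut, 121 to 277 in WT gut, 155 to 529 in Maf-KO spleen and 186 to 919 in WT spleen. That of 15 gut epithelial markers was 160 to 166, 151 to 182, 39.7 to 78.3 and 41.6 to 68.9 CPM in the same groups. That of 9 stromal and endothelial markers was 44.5 to 79, 66.2 to 66.9, 115 to 176 and 129 to 192 CPM, and that of 8 B cell and plasma cell markers was 1450 to 3800, 2370 to 6800, 345 to 640 and 367 to 555 CPM. Single genes carry most of some of these sums. Jchain, of plasma cells, averaged 2220 CPM in Maf-KO gut and 4160 CPM in WT gut, the epithelial Epcam 124 and 145 CPM, and the endothelial Pecam1 52.8 and 52.7 CPM. The epithelial cadherin Cdh1, named after its values were seen, did not overlap in gut, with 25.2 and 19.8 CPM in Maf-KO libraries, against 5.27 and 6.15 CPM in WT libraries (log2 fold change 1.97, SE 0.62, adjusted p = 0.4247 in edgeR). Of the same list, Cdh17 and Vil1 also separated in gut with higher values in Maf-KO. Krt18 (1.13 and 1.28 against 2.26 and 2.37 CPM), Lgals4 and Fabp2 separated with lower values in Maf-KO. The share of all genes that separate in gut was not counted, so nothing is read from these. Of 37 tested members of these 4 lists, 0 were called between genotypes in either tissue by edgeR, DESeq2 or limma-voom. In edgeR 2 were at an unadjusted p under 0.05 in gut and 1 in spleen, beside 8.14% and 2.85% of all genes tested. The 6 liver markers were at or near 0 everywhere, with a sum of at most 3 counts in a library. The part of these cells in the levels of Rnase4 and Ang was not tested.

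Of 58 annotated genes with a start within 500 kb, 36 are in the table and 10 besides Rnase4 and Ang were tested. Their log2 fold changes of Maf-KO against WT ran from −1.15 to 0.14 in gut and from −1.82 to 0.68 in spleen. The 3 nearest on the upstream side were Pnp2 and Pnp, which encode purine nucleoside phosphorylases, and Tmem55b, a phosphoinositide phosphatase of lysosomes. By edgeR, DESeq2 and limma-voom alike, 0 of the 10 were called. With 0.151% of all genes tested called in gut and 0.0151% in spleen by edgeR, nothing is read from that 0. At an unadjusted p under 0.05 edgeR had 0 of the 10 in gut and 2 in spleen, Rpph1 and Parp2. Of all genes tested, 8.14% in gut and 2.85% in spleen had such a p. Pnp2 had 0.04 in gut and 0.68 in spleen, Pnp 0.14 and 0.04, and Tmem55b −0.15 and −0.21. On the downstream side Rnase6 was the nearest tested gene. The lowest value in both tissues was that of Rpph1, the RNA of ribonuclease P, at −284 kb, which is named after its values were seen. It was −1.15 (SE 0.72) in gut and −1.82 (SE 0.64) in spleen, not called. Its group means were 0.551 CPM in Maf-KO gut and 0.32 in Maf-KO spleen, against 1.24 in WT gut and 1.15 in WT spleen. Rpph1 thus passed the filter mainly through the WT groups, so its values and its unadjusted p are a description. Between the Rnase4 start and a point 27194 bases upstream lie the starts of 7 transfer RNA genes, the nearest 430 bases from the Rnase4 start; they have no count here that was analysed.

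**Figure D5:**
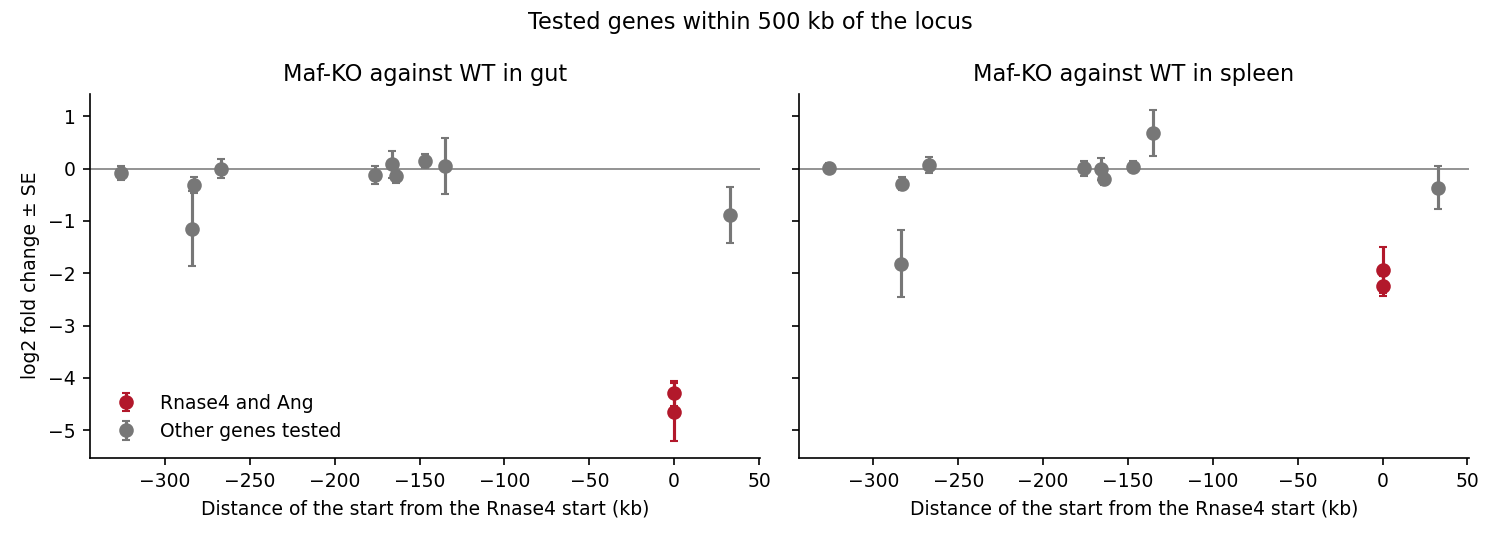
Log2 fold change with SE of Maf-KO against WT in gut (left) and spleen (right) for the 12 tested genes that start within 500 kb of the Rnase4 start, against the distance of the starts in kb. Rnase4 and Ang, in red at 0 kb, lie at −4.29 and −4.65 in gut and at −2.24 and −1.93 in spleen, and the other 10 lie between −1.82 and 0.68.

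The genes whose pattern over the 10 libraries was most like that of a member were ranked by the root mean square difference of centred log2(CPM + 0.5), among 12388 genes with at least 1 CPM on average. For Rnase4 the nearest was Col16a1, a collagen chain, at 0.25, and Ang was the second at 0.68, ahead of Samd11, C030034L19Rik and Nynrin; the median over all candidates was 1.67. Col16a1 averaged 0.17 CPM in Maf-KO gut, 8.53 in WT gut, 0.0361 in Maf-KO spleen and 1.49 in WT spleen. For Ang the nearest were Igkv12-89, an immunoglobulin segment, and Nynrin, at 0.34 and 0.44, then C030034L19Rik, Spock2 and Col16a1, with Rnase4 at rank 17. The pseudocount narrows the range of low genes such as Ang. Among the nearest to Rnh1 were Nsun6, Cope, Tyk2 and Aamp, and Ang and Rnase4 stood at ranks 11561 and 12102. This likeness uses the values by which Rnase4 and Ang were chosen and is a description.

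Lists of genes related to these proteins were set beside all genes tested, of which 0.151% were called between genotypes in gut and 0.0151% in spleen, so that a count of 0 in a short list says nothing particular of it. Of 15 tested genes for angiogenin receptors, transfer RNA cleavage and stress granules, 0 were called in gut and 0 in spleen, with median log2 fold changes of −0.00107 and −0.0412 beside −0.00351 and −0.00646 over all genes tested. Of 10 genes in the list of the ribonuclease inhibitor and inflammasomes, Rnh1 included, 0 were called in either tissue (medians −0.0708 and 0.103), and of 29 other endo- and exoribonucleases also 0 (medians 0.0314 and −0.0246). DESeq2 and limma-voom also called 0 in each of these lists. At an unadjusted p under 0.05 edgeR had 3 of the other ribonucleases in gut and 0 elsewhere in these lists. Of all genes tested, 8.14% in gut and 2.85% in spleen had such a p, so nothing is read from these counts.

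Between tissues, 3 ribonucleases of other families were higher in gut in both genotypes. Zc3h12a, the endonuclease Regnase-1 that cuts inflammatory messenger RNAs, averaged 229 CPM in WT gut against 29.3 CPM in WT spleen (log2 fold change 2.96, adjusted p = 4.39e-06 in edgeR) and 260 CPM in Maf-KO gut against 25.1 CPM in Maf-KO spleen (3.37, adjusted p = 2.058e-06). N4bp1, a related endonuclease, was higher by 1.71 in WT and 1.51 in Maf-KO, and Ern1, the stress sensor IRE1 of the endoplasmic reticulum, by 1.63 and 1.61. Ago2, the slicing Argonaute, was higher by 1.01 in Maf-KO. All these calls held without any 1 library. In the list of other ribonucleases 6 of 29 were called in WT and 7 in Maf-KO, beside 28% and 28.6% of all genes tested. With the title number as a block 11 and 12 were called, beside 37.2% and 39.7% of all genes. These counts are near those shares, so nothing is read from them. Samhd1 was lower in gut by −0.69 in WT and −0.62 in Maf-KO, lost without WT gut replicate 1 (−0.63) and without any 1 of Maf-KO gut replicates 2 and 3 and Maf-KO spleen replicate 3 (−0.74 to −0.46). Rnasek, higher by 0.32 in WT, kept its call only when the library left out was Maf-KO spleen replicate 2 or WT spleen replicate 3 (otherwise 0.23 to 0.41). Dicer1, lower by −0.49 in WT, kept it only without WT gut replicate 3 or WT spleen replicate 1 (otherwise −0.49 to −0.24). Angel2, lower by −0.43 in Maf-KO, kept it only without a WT gut library (otherwise −0.55 to −0.31).

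Plxnb2, a plexin reported as a receptor of angiogenin, was the 1 called gene of its list in each genotype, lower in gut. It averaged 2.66 CPM in WT gut against 14.2 CPM in WT spleen (−2.41, adjusted p = 0.02142 in edgeR) and 2.18 CPM in Maf-KO gut against 13.7 CPM in Maf-KO spleen (−2.65, adjusted p = 0.01381). The call ended without any 1 gut library of the genotype (−2.91 to −2.05 in WT, −2.83 to −2.48 in Maf-KO). With the title number as a block, 4 of the 15 genes of the list were called in WT and 2 in Maf-KO. All these counts are below the shares of all genes called, given above. Of the inflammasome list 4 of 10 were called in each genotype, about 1 gene more than 28% and 28.6% of all genes would give, and nothing is read from that count. Il1b was higher in gut by 2.27 in WT and 2.31 in Maf-KO, Il18 lower by −1.61 and −2.10 and Pycard, the adaptor ASC, lower by −1.16 and −0.94, while Aim2, a DNA sensor, was higher by 0.54 in WT and Nek7 lower by −0.35 in Maf-KO. The Il18 call in Maf-KO held without any 1 library. The Il18 call in WT ended without either WT gut library (−1.61 to −1.60), that of Aim2 without WT gut replicate 1 (0.53), that of Pycard without WT gut replicate 3 (−0.93) and, in Maf-KO, without gut replicate 2 or spleen replicate 3 (−0.83 to −0.73). The Il1b call in WT ended without either WT gut library, WT spleen replicate 1 or WT spleen replicate 2 (1.90 to 2.48). In Maf-KO it ended without gut replicate 2, spleen replicate 1 or spleen replicate 3 (1.12 to 2.09). The call of Nek7 held only without Maf-KO spleen replicate 1 (otherwise −0.40 to −0.30). Il1b, Il18 and Pycard are also expressed by myeloid cells, whose marker sums are given above and whose part was not tested.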

How the data were processed

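RNA of sorted Tregs was sequenced in 10 libraries. The authors deposited raw read counts per Entrez gene, which are not normalised; the submitters' processing notes name the builds GRCm38 and mm10 and the tools featureCounts, Subread and limma. The sources used here do not give tool versions, the strand setting or the treatment of reads over 2 genes. The authors also deposited log2 FPKM values of 12252 genes per library, used here for levels per length and as an alternative. Members and gene lists were chosen with earlier results of these data known.

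Counts were tested in R 4.3.3 with edgeR 4.0.16: filterByExpr (minimum count 10, minimum total 15), TMM factors (0.887 to 1.12), 1 quasi-likelihood fit with 1 coefficient for each group (common dispersion 0.0431), two-sided F tests and Benjamini-Hochberg adjustment over 13214 genes, called under 0.05. Means and SD are of TMM-scaled CPM. The SE of an edgeR log2 fold change is its absolute value divided by the square root of F, and its 95% interval is built from that SE. At low counts the p of the test can be larger than this SE implies, as for Ang between tissues in Maf-KO. The code was tested on simulated data. Shares and count ratios have exact 95% intervals. Replicates of a group differed beyond counting (chi-square per degree of freedom 14.8 to 35.1). Entries without a symbol (852) stayed in totals and tests.

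Libraries of gut and spleen with the same number in their title deviated together from their group means (correlations 0.339, 0.277, 0.399 and 0.386), so that number was used as a block in alternatives. As each gut group holds 2 libraries, their deviations mirror each other, and the 4 correlations are not independent. The labels do not say that the number marks a mouse. The main fit has no such block and treats the libraries as independent. Named are the 3 members, Maf, list genes called in a comparison or else the 2 most abundant, the 3 nearest tested neighbours on each side and the 5 most similar patterns; 2 genes that this rule names are not reported here. Alternatives were DESeq2 1.42.0 and its size factors, limma 3.58.1 (voom and trend), no filter, only the groups compared, blocks, each library left out, and Rnase4 and Ang summed. Sequences come from GENCODE M21 and RefSeq (GRCm38.p6) tables.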

Additional observations from a re-analysis of the deposited data

How the results depend on the processing

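Of 285 alternative values of Rnase4, Ang and Rnh1, 264 kept their direction and, where tested, their side of the threshold, or moved by less than the SD between replicates, and the other 21 are given here; all 97 of Rnase4 kept their sign. With the replicate number of the labels as a block, Rnase4 in gut was −4.17 and Rnh1 in gut 0.0669. With the title number as a block, the difference of the Rnase4 genotype effect between gut and spleen was −1.83. With the title number as a random effect in limma-voom, Rnh1 in gut was 0.00354. The replicate number did not pair genotypes in spleen (correlations −0.0443, −0.183 and −0.362), and the title block changed no call of a member. On log2 FPKM with limma-trend, gut against spleen was −0.056 in WT and −0.03 in Maf-KO for Rnh1. For Ang it was −1.18 in Maf-KO, on the other side of the threshold from the main fit. As Ang passed the filter through the WT groups and had 4 reads in Maf-KO gut and 10 in Maf-KO spleen, this is a description and not a call. With Rnase4 and Ang summed, the values set beside those of Ang were −4.32 in gut, −2.21 in spleen, 0.171 between tissues in Maf-KO and −2.11 for the difference of the genotype effect between tissues. By construction the sum follows Rnase4, which has most of the reads. Leaving out single libraries gave −4.40 to −4.16 for Rnase4 in gut, −4.90 to −4.35 for Ang in gut and −2.11 to −1.63 for Ang in spleen. It gave 1.4 to 2 for Ang between tissues in WT and −3.03 to −2.43 for the difference of the Ang genotype effect between tissues. For Rnh1 it gave −0.177 to 0.137 in gut, −0.105 to 0.0573 in spleen and −0.132 to 0.181 for the difference of the genotype effect between tissues. Pnp2 in gut ran between −0.192 and 0.256 and Pnp in spleen between −0.0432 and 0.0729. For these values the cause was not tested.

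Counts of genes called moved more: 4 to 112 in gut (20 as reported, 112 with DESeq2, 9 with the replicate number as a block, 4 without either Maf-KO gut library, 7 and 5 when WT gut replicates 1 and 3 were left out, 12 without Maf-KO spleen replicate 3 and 10 without WT spleen replicate 1), 0 to 19 in spleen (2 as reported, 19 with DESeq2, 0 with limma-voom, 9 without WT spleen replicate 2), 2183 (without WT gut replicate 1) to 5525 between tissues in WT (3703 as reported), 2118 to 5766 in Maf-KO (3774 as reported, 2394 and 2118 without gut replicates 2 and 3) and 0 to 8 for the difference of the genotype effect between tissues. With 2 libraries per gut group and at most 4 Ang reads in a Maf-KO library, the Ang values carry the widest intervals.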

Other observations

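Other RNase A genes had too few reads to test. Ang4, an antimicrobial angiogenin known from Paneth cells of the mouse gut, had 5 reads, all in WT gut replicate 1, and Rnase2b had at most 0.181 CPM in a group mean. No read of Rnase2a, Rnase9, Rnase11, Rnase13, Ang5, Ang6, Ear1, Ear6, Ear10 or Ear14 was counted in the 10 libraries.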
